A study of Mus musculus with 15 samples.

Results

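The protein kinase C (PKC) family was followed through the transcriptomes of migrating interneurons that come from the medial ganglionic eminence (MGE), a transient germinal zone of the embryonic forebrain. The 8 members were found by gene symbol in the *Lhx6* and the *Mtg8* tables: *Prkca*, *Prkcb*, *Prkcd*, *Prkce*, *Prkch*, *Prkci*, *Prkcq* and *Prkcz*, of 26835 genes in the first and 25714 in the second. Of the 8, 7 passed the filter on low values in each table, and *Prkch* did not. The family was taken up because *Prkcq* was low in *Lhx6* mutants. The members' values in that comparison are therefore given as a description, with no p-value, and the count of members past the threshold stands beside that of all genes with nothing read from it. The *Mtg8* comparison was tested, although its results were also known when the members were chosen.

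Cortices of embryonic day 14.5 embryos on a mixed C57BL6/CBA background were dissociated 1 embryo at a time and their YFP+ cells sorted, so that 1 embryo gave 1 library. *Lhx6* controls (Lhx6+/+, n = 4) were compared with *Lhx6* mutants (Lhx6-/-, n = 5), and *Mtg8* controls (Mtg8+/+, n = 3) with *Mtg8* mutants (Mtg8-/-, n = 3). The methods describe the mutants as littermates of the controls, without saying which libraries share a litter. Embryos of every group, controls included, carried Nkx2-1-Cre and R26R-YFP. The Nkx2-1 promoter drives Cre in the MGE and its neighbours, so that the cells were chosen by descent, whereas the mutations were germline and present in every cell of the embryo. LHX6 is a LIM homeodomain factor of MGE-derived interneurons and MTG8, the product of *Runx1t1*, is a transcriptional corepressor. The study compared the mutants to look for genes downstream of both factors.

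PKCs are serine/threonine kinases that act below receptors coupled to phospholipase C. That enzyme cuts a membrane lipid into inositol trisphosphate, which releases calcium, and diacylglycerol, which draws many PKCs to the membrane. The conventional members (*Prkca* and *Prkcb*) need calcium and diacylglycerol. The members *Prkcd*, *Prkce*, *Prkch* and *Prkcq* need diacylglycerol but no calcium, and only they are called the calcium-independent class here. The atypical members (*Prkci*, *Prkcz*) need neither and work with the PAR polarity proteins. In neurons the family is known for phosphorylating channels, receptors and growth cone proteins.

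The promoters of *Prkcq* and *Prkca*, the members with the largest differences in *Lhx6* mutants, are shown because homeodomain proteins commonly bind sites with a TAAT core. Both come from RefSeq on GRCm38.p6 and hold 300 bases each, around a start of transcription in RefSeq. *Prkcq* is read from the plus strand at chr2:11172132-11172431 and *Prkca* from the minus strand at chr11:108343839-108344138. The annotation in the deposited tables starts *Prkcq* earlier, at 11172108, so that by it the whole *Prkcq* window lies within the gene, whereas the *Prkca* window crosses the start of the gene. Capitals mark TAAT on either strand, and there are none here.
Prkcq: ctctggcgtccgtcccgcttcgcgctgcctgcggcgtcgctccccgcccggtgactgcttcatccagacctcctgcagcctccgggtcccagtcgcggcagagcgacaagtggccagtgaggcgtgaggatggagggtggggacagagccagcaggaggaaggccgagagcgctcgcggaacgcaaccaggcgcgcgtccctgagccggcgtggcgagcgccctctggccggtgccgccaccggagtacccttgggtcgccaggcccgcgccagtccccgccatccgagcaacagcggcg
Prkca: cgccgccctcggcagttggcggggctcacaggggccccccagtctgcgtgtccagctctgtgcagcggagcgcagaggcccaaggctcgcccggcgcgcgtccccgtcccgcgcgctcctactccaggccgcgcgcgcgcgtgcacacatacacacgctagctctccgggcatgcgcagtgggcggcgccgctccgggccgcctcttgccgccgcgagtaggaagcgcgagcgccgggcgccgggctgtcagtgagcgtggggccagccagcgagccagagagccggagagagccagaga

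RefSeq promoters were found for 6 of the 8 members, and *Prkce* and *Prkch* had no entry in the table used. The letters TAATTA (a word that reads the same on both strands and holds TAAT) were in 0 of these members' promoters and in 5.3% of 32851 promoters of that length. TAAT alone, searched on both strands, was in 58.0% of them. It occurred 3 times in the *Prkci* promoter and 1 time in each of the 2 promoters listed for *Prkcd*. GC content was 73.0% for *Prkcq* and 75.3% for *Prkca*, against a median of 52.7% over all promoters. These are matches of letters in a short window and not binding sites.

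Before the members, the libraries were checked. Depth ranged from 12218422 to 22053032 counted reads per library. *Lhx6* was 7247 ± 1093 normalized counts in *Lhx6* controls (SD, n = 4) and 331 ± 99.7 in mutants (SD, n = 5). *Runx1t1* lay between 7938 and 10264.5 normalized counts in *Mtg8* controls and between 12250 and 13934 in the mutants, so it was higher in each of the 3, and these are named below by their label. Its log2 difference was 0.54 (SE 0.17, limma adjusted p = 0.859), and 4.68% of all genes tested were higher in each labelled mutant. Counts per gene do not show whether the reads fell outside the disrupted part of *Runx1t1*. Library names come with or without a leading date. No date stands in the names of the 4 *Lhx6* controls or of mutant 6, and one does in those of mutants 1, 2, 3 and 5, so in that comparison only mutant 6 separates name style from genotype. Mutant 6 shares the stem of its name with *Lhx6* controls 1 and 2, and the other 4 mutants share none with a control. Among those, mutants 2 and 5 have the same date and stem as each other. *Mtg8* controls 1 and 2 and labelled mutant 2 have the same date and stem, and the other 3 libraries of that table each have their own. What a shared stem stands for is not given in the sources used here. Interneuron genes were abundant in all libraries, with a summed level of at least 18680 normalized counts over 7 genes. Genes of pyramidal neurons were present too, at 5584 to 22099 normalized counts summed over 8 genes, as were those of red blood cells (1627 to 49955 over 4 genes).

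*Prkcq* encodes PKC theta, best known for signalling at the synapse that T cells form with antigen-presenting cells. The gene lies on chromosome 2 (GRCm38, 11172108 to 11301222, plus strand), 24.9 Mb from the start of *Lhx6*, and its exons overlap no other gene. In *Lhx6* controls 1, 2, 3 and 4 it was at 311, 338, 308 and 266 normalized counts, that is, 324, 381, 334 and 311 reads. In *Lhx6* mutants 1, 2, 3, 5 and 6 it was at 13.6, 1.85, 0, 20.3 and 27.2 normalized counts, from 11, 2, 0, 21 and 22 reads. Each mutant was far below each control, and the highest mutant was mutant 6, the one with an undated name. The 0 in mutant 3 allows up to 2.79 normalized counts there, taking 3 reads as the floor. On average controls were at 306 ± 29.7 (SD, n = 4) and mutants at 12.6 ± 11.7 (SD, n = 5), and the mutants held 4.12% of the control level, a 24.2-fold difference. On the log2(normalized count + 1) scale the difference was -5.33 with a standard error of 0.84. This value depended on the scale and the tool, at -5.61 with 0.5 in place of 1, -3.98 with 10 and -4.61 by DESeq2 on the recovered reads. It was between -5.81 and -4.60 when each library was left out in turn, and -3.44 between the undated libraries, mutant 6 against the 4 controls. In bulk samples fewer cells with the transcript and less transcript per cell cannot be told apart.

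T cells are known to express *Prkcq*. Of 6 T cell marker genes only *Ptprc* was in the *Lhx6* table, where it reached at most 5.53 normalized counts in any library. The other 5 were not analysed here. Among MGE lineage genes, 2 of 7 fell in the *Lhx6* mutants (*Lhx6* itself and *Satb1*) by limma, beside 0.682% of all genes. Of that list *Lhx8*, singled out after its values were seen, was higher in each mutant than in each control, at 14.3 ± 8.70 and 63.2 ± 43.6 normalized counts (SD, n = 4 and n = 5). It was called by DESeq2 on the recovered reads (adjusted p = 0.00942), which called 4.53% of the genes it tested, and not by limma (adjusted p = 0.0982). Of the 7 genes 4 had a higher mean in the mutants, and the median log2 difference was 0.02. Without the deleted gene, the other 6 summed to 12253 to 15223 normalized counts in controls and 7578 to 19376 in mutants, which overlapped. Among 7 tested GABAergic interneuron genes *Dlx5* (log2 difference 1.02, limma adjusted p = 0.00072) and *Dlx6* (1.66, limma adjusted p = 0.00098) rose, and the list summed to 19203 to 26631 normalized counts in controls and 23208 to 39466 in mutants. Of 6 tested genes of interneurons from the caudal ganglionic eminence (CGE) *Htr3a* fell by limma (-1.65, adjusted p = 0.0451). *Nr2f2* was higher in each mutant than in each control (0.88, limma adjusted p = 0.0676) and *Cck* lower (-0.80, limma adjusted p = 0.0781), neither called by limma. Of the 6, 3 had a lower and 3 a higher mean, with a median of -0.20, and 4 of the 6 were called by DESeq2 and 0 by edgeR. The CGE list summed to 3066 to 3771 normalized counts in controls and 3753 to 5239 in mutants. The part of these changes in the *Prkcq* values, and in those of the other members, was not tested.

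In *Mtg8* controls 1, 2 and 4 *Prkcq* was at 219, 272 and 367 normalized counts, and in labelled mutants 2, 3 and 4 at 128, 279 and 258. Labelled mutant 2 was the lowest of the 6 libraries and the others lay within the control range, so the groups overlapped. The log2 difference was -0.41 with a standard error of 0.33 and a 95% interval of -1.12 to 0.29 (limma, adjusted p = 0.883). An exact permutation test, two-sided, gave p = 0.5, where the smallest value that 3 libraries against 3 allow is 0.1. The difference was -0.06 without labelled mutant 2. Within dated names it was -0.93 (labelled mutant 2 against controls 1 and 2) and within undated names -0.45 (labelled mutants 3 and 4 against control 4). Whether the differences in the 2 tables themselves differ was not tested, since each table was normalized on its own.

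*Prkcd*, the gene of PKC delta, a kinase with roles in apoptosis and B cell tolerance, lies on chromosome 14 (30595354 to 30626210, minus strand). It was at 127, 135, 113 and 143 normalized counts in *Lhx6* controls 1 to 4 and at 78.0, 57.4, 151, 77.5 and 144 in mutants 1, 2, 3, 5 and 6. Mutants 3 and 6 lay just above the control range and the other 3 below it, so the groups overlapped. The log2 difference was -0.44 with a standard error of 0.31, and 0.15, the other way, between the undated libraries. In *Mtg8* controls it was at 55.9, 67.2 and 77.3 and in the labelled mutants at 69.1, 91.9 and 115 normalized counts, which also overlapped. That difference was 0.44 (SE 0.32, 95% interval -0.25 to 1.13, limma adjusted p = 0.875).

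*Prkce*, the gene of PKC epsilon, an isoform abundant in brain, lies on chromosome 17 (86167785 to 86657919, plus strand) and had the highest level per length of the family in *Lhx6* controls. It was at 827, 959, 1056 and 911 normalized counts in *Lhx6* controls and at 921, 856, 854, 1160 and 732 in the mutants. The mutants spread on both sides of the controls, with a log2 difference of -0.064 (SE 0.16). The only gene whose exons overlap *Prkce*, AC154542.1 on the same strand, did not exceed 6.52 normalized counts in the *Lhx6* table.

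In the *Mtg8* table *Prkce* was at 682.95, 706 and 594 normalized counts in controls 1, 2 and 4 and at 602, 338 and 372 in labelled mutants 2, 3 and 4. Labelled mutants 3 and 4 were below every control, and labelled mutant 2 was just inside the control range. The log2 difference was -0.64 (SE 0.25, 95% interval -1.18 to -0.09), with an unadjusted p of 0.0250 and an adjusted p of 0.859 by limma, and it was not called. The exact permutation test gave p = 0.2. Leaving out 1 library in turn moved the difference between -0.89 and -0.48. In the same libraries the summed level of 7 MGE lineage genes was 30004 to 32515 normalized counts in controls and 22067 to 24387 in labelled mutants, which did not overlap, and its part in the *Prkce* values was not tested.

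*Prkch*, the gene of PKC eta, an isoform known from epithelia, lies on chromosome 12 (73584796 to 73778185, plus strand). It was the lowest member, at 15.4, 14.2, 9.21 and 8.55 normalized counts in *Lhx6* controls and 9.90, 1.85, 0, 9.69 and 4.95 in the mutants. Mutants 1 and 5 reached into the control range. In *Mtg8* controls it was at 15.6, 5.33 and 2.93 normalized counts. Labelled mutant 4 was at 5.35 and labelled mutants 2 and 3 had no reads, which allows up to 3.398 and 2.757 normalized counts. With means of 8.19 and 4.88 the gene was below the filter of the limma fit in both tables. In the *Mtg8* table the groups overlapped, the exact permutation test gave p = 0.3, and DESeq2 on the recovered reads did not call it.

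**Figure D1:**
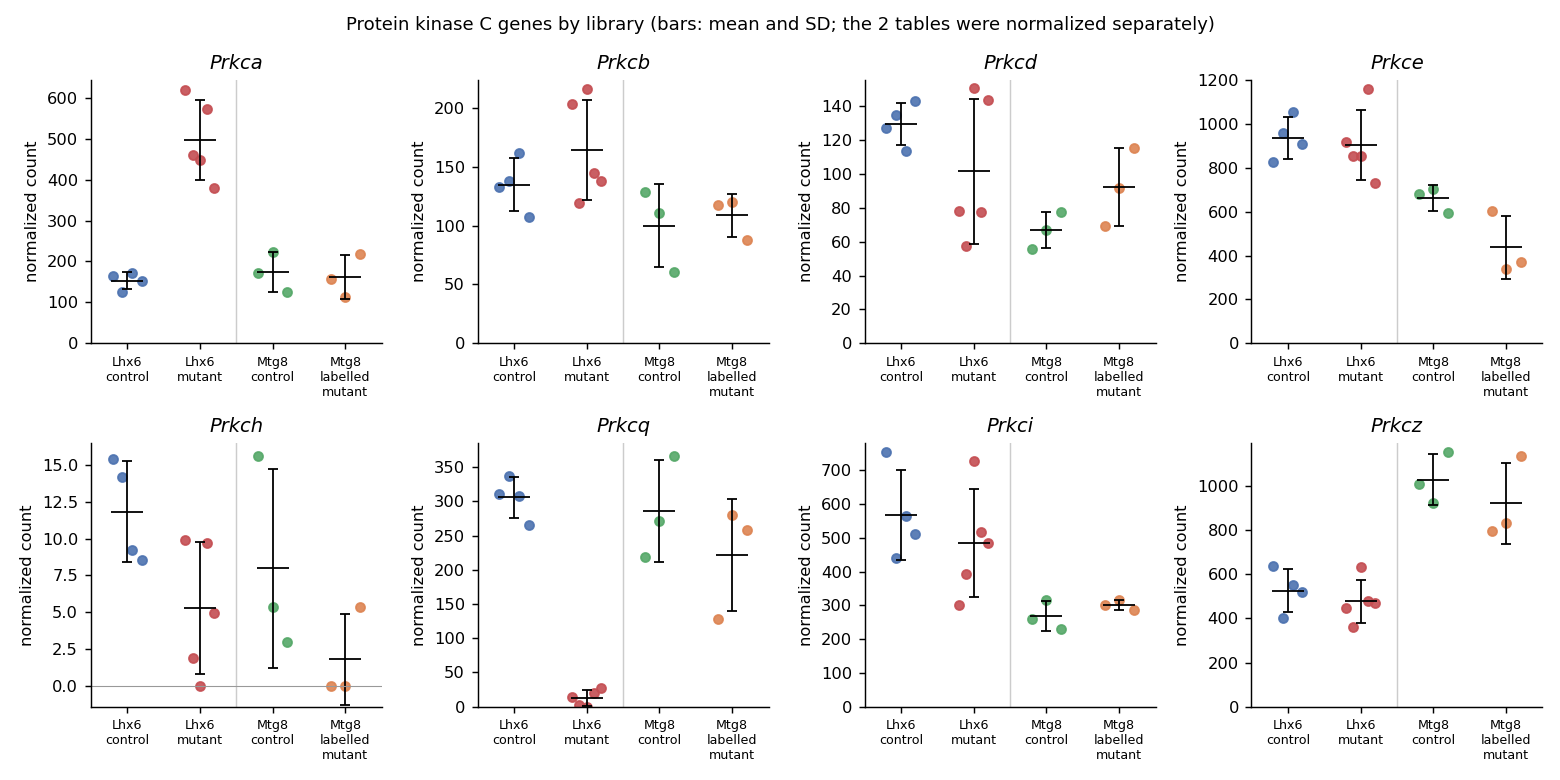
Normalized counts (y axis, linear) of the 8 PKC genes in each library of the 4 groups; points are libraries and bars the group mean and SD. *Prkcq* sits at 0 to 27.2 in *Lhx6* mutants against 266 to 338 in their controls, and *Prkca* at 379 to 619 against 125 to 172. For the other genes, and for all 8 in the *Mtg8* table, control and mutant groups overlap.

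*Prkca*, the gene of PKC alpha, a widely expressed conventional isoform, was the member that differed most in the other direction. It lies on chromosome 11 (107933387 to 108343928, minus strand). *Lhx6* controls 1 to 4 were at 163, 125, 172 and 152 normalized counts and mutants 1, 2, 3, 5 and 6 at 619, 460, 449, 573 and 379. Every mutant was above every control, and mutant 6 was the lowest of the mutants. Controls averaged 153 ± 20.5 (SD, n = 4) and mutants 496 ± 97.7 (SD, n = 5), a 3.24-fold difference, and the log2 difference was 1.68 with a standard error of 0.20. It ranged from 1.58 to 1.77 with each library left out in turn, and was 1.31 between the undated libraries. Exons of *Prkca* overlap those of *Apoh* on the other strand, and *Apoh* was at 0 to 13.0 normalized counts in these libraries. Beside it, genes of radial glia and progenitors summed to 4954 to 5798 normalized counts over 7 genes in controls and 4257 to 9382 in mutants. Genes of oligodendrocyte precursors summed to 54.7 to 106 over 5 genes in controls and 56.2 to 326 in mutants. By limma 0 of 7 tested progenitor genes and 0 of 3 tested precursor genes were called (0 and 1 at an unadjusted p under 0.05, and 0 by DESeq2 or edgeR), and their part in the *Prkca* values was not tested.

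In the *Mtg8* table *Prkca* was at 172, 223 and 125 normalized counts in controls and 156, 113 and 219 in the labelled mutants. The 2 groups covered nearly the same range. The log2 difference was -0.10 (SE 0.32, 95% interval -0.79 to 0.59, limma adjusted p = 0.971), and its sign turned when control 2 (0.10) or labelled mutant 3 (0.13) was left out.

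*Prkcb*, the gene of PKC beta, known from B cell receptor signalling, lies on chromosome 7 (122288751 to 122634402, plus strand). It was at 133, 138, 161 and 107 normalized counts in *Lhx6* controls and at 203, 119, 216, 144 and 137 in the mutants. Mutants 1 and 3 were above the controls and the other 3 among them, with a log2 difference of 0.26 (SE 0.24). *Mtg8* controls were at 129, 111 and 60.6 and the labelled mutants at 118, 120 and 87.9 normalized counts, all of them within the control range. The difference was 0.17 (SE 0.34, 95% interval -0.56 to 0.90, limma adjusted p = 0.952) and turned to -0.15 without control 4.

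*Prkci*, the gene of the atypical PKC lambda/iota, a kinase of the apical polarity complex, lies on chromosome 3 (30995747 to 31052959, plus strand). It was at 754, 441, 564 and 511 normalized counts in *Lhx6* controls and at 302, 393, 727, 518 and 484 in the mutants. The groups overlapped over most of their range, with a log2 difference of -0.26 (SE 0.25). *Mtg8* controls were at 258, 317 and 229 and the labelled mutants at 300.2, 314 and 286 normalized counts. Each labelled mutant lay within the control range, and the difference was 0.18 (SE 0.23, 95% interval -0.33 to 0.68, limma adjusted p = 0.931).

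*Prkcz*, the gene of PKC zeta, which in brain also gives the short constitutively active kinase known as PKM zeta, lies on chromosome 4 (155260129 to 155361361, minus strand). It was at 636, 401, 552 and 519 normalized counts in *Lhx6* controls and at 447, 361, 633, 478 and 472 in the mutants, which overlapped, with a log2 difference of -0.14 (SE 0.19). *Mtg8* controls were at 1012, 924 and 1156 and the labelled mutants at 798, 834 and 1135 normalized counts. Labelled mutants 2 and 3 were below all controls and labelled mutant 4 was among them. The difference was -0.17 (SE 0.21, 95% interval -0.63 to 0.29, limma adjusted p = 0.924). Counts of *Prkcz* carry an uncertainty, because the processed pseudogene *Prkcz2* on chromosome 7 repeats part of its transcript. Of the 6449 different 75-base words (the read length) in *Prkcz* transcripts, 744 also occur in *Prkcz2*, and the longest exact shared stretch is 302 bases. *Prkcz2* itself was at 78.9 to 112 normalized counts in *Lhx6* controls and 49.98 to 103 in mutants. No other pair among the 8 members shared such a word.

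In the *Lhx6* comparison 2 of the 7 tested members passed the threshold of a limma adjusted p under 0.05, *Prkcq* lower and *Prkca* higher, beside 1.71% of 16727 genes tested. The same 2 were the ones whose groups did not overlap, beside 6.22% of all genes (3.03% lower in each mutant and 3.19% higher). Nothing is read from these counts, since the family was chosen on this contrast. The median log2 difference of the 7 was -0.14, against -0.04 over all genes. In the *Mtg8* comparison 0 of 7 members were called by limma, where the background was 0% of 16132 genes, and 1 member (*Prkce*) had an unadjusted p under 0.05, beside 5.49% of all genes. With name style as a covariate it was *Prkcq* that had such a p (0.0184, a difference of -0.69), while that of *Prkce* was 0.0563 (-0.47), and neither was called (limma, adjusted p of 0.839 for *Prkcq*). DESeq2 and edgeR on the recovered reads also called 0 members, beside 30 genes (0.152%) and 1 gene (0.0062%) in all. The groups of no member were separate, beside 10.2% of all genes. Of the 7, 4 had a lower and 3 a higher mean log2 level in the labelled mutants, with a median of -0.10 against -0.01 over all genes.

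**Figure D2:**
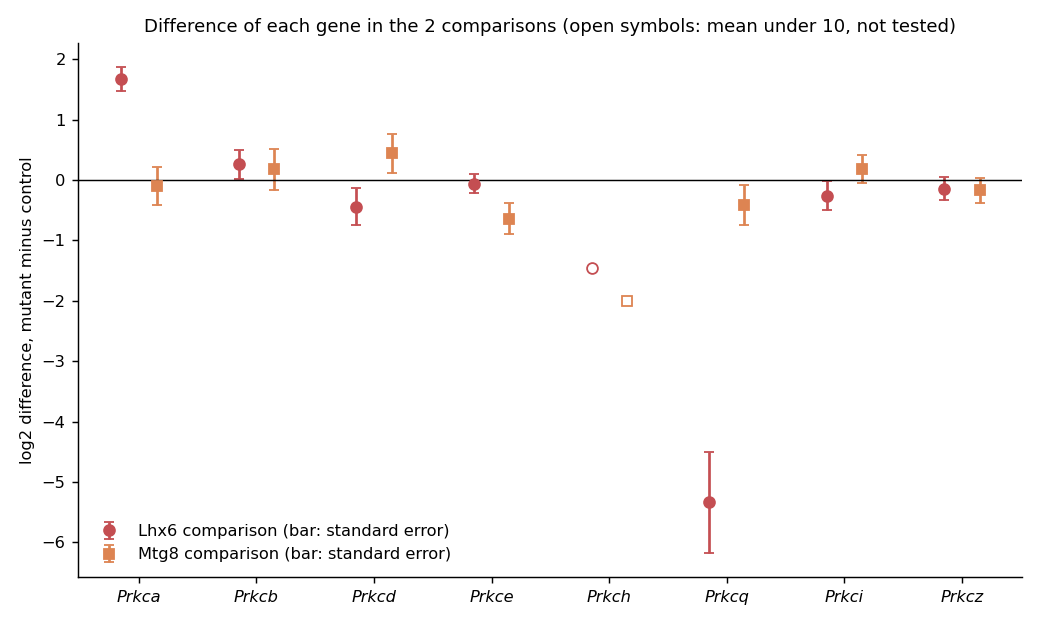
Difference of mean log2(normalized count + 1), mutant minus control (y axis), for each PKC gene in the *Lhx6* (circles) and *Mtg8* (squares) comparisons, with standard errors; open symbols were not tested. In the *Lhx6* comparison *Prkcq* at -5.33 and *Prkca* at 1.68 lie away from 0, and in the *Mtg8* comparison the tested genes lie between -0.64 (*Prkce*) and 0.44 (*Prkcd*).

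Divided by exon length, the levels can be ordered between genes. In *Lhx6* controls *Prkce* led with 129 ± 13.2 normalized counts per kb (SD, n = 4), followed by *Prkci* at 102 ± 24.1 and *Prkcz* at 83.4 ± 15.5, neighbours whose ranges overlapped. *Prkcq* came next at 43.2 ± 4.19, apart from the genes above and below it. *Prkcd* (23.3), *Prkcb* (17.6) and *Prkca* (17.0) overlapped with their neighbours, and *Prkch* was last at 1.57. In *Lhx6* mutants *Prkca*, at a mean of 55.1 ± 10.9 per kb (SD, n = 5), came after the same leading genes. Its range overlapped that of *Prkcz*, and in mutant 1 *Prkca* (68.8) was above *Prkci* (54.4). There *Prkcq*, at 1.78 ± 1.66 in the mutants, was by mean above *Prkch* alone, with which it overlapped. In *Mtg8* controls the order was *Prkcz* (163), *Prkce* (91.0), *Prkci* (48.3), *Prkcq* (40.4), *Prkca* (19.3), *Prkcb* (13.07), *Prkcd* (12.05) and *Prkch* (1.06), all per kb. Of these, *Prkcz* and *Prkce* were each separate from the next gene, *Prkci* overlapped *Prkcq*, and *Prkca*, *Prkcb* and *Prkcd* formed a chain of overlapping ranges. In the labelled mutants the same first 4 genes led in that order, at 146, 60.2, 54.1 and 31.3 per kb. There *Prkcz* was separate from *Prkce*, but *Prkce* overlapped *Prkci*, which was above it in labelled mutants 3 and 4, and *Prkcq* overlapped *Prkca*. The tables were normalized separately, so the levels of 1 gene in the 2 tables are not set against each other.

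Summed over the 8 genes, the level per length was 418 ± 35.3 in *Lhx6* controls (SD, n = 4) and 385 ± 54.7 in mutants (SD, n = 5), with overlapping ranges of 381 to 455 and 324 to 454. Within that sum *Prkcq* made up 9.51 to 12.5% in controls and 0 to 1.09% in mutants. *Prkca* made up 3.65 to 4.36% in controls and 10.99 to 18.9% in mutants. The conventional pair together held 7.81 to 9.15% of the sum in controls and 17.0 to 26.2% in mutants, which did not overlap. Of the pair only *Prkca* was separate, and *Prkcb* overlapped (14.0 to 21.1 per kb in controls and 15.6 to 28.2 in mutants). A share also depends on the rest of the sum, *Prkcq* included, so nothing is read from this one. The shares of the other classes did overlap. The calcium-independent class held 40.2 to 54.1% in controls and 31.9 to 41.4% in mutants, and the atypical class 37.5 to 52.0% and 34.3 to 50.9%. The summed level of the calcium-independent class, *Prkcq* included, was 183 to 211 per kb in controls and 129 to 178 in mutants. These sums did not overlap, but they hold *Prkcq*, on which the family was chosen, so nothing is read from that. The values of *Prkcd*, *Prkce* and *Prkch*, the rest of the class, each overlapped between the groups. In the *Mtg8* table the total was 388 ± 7.52 per kb in controls and 341 ± 30.9 in labelled mutants (SD, n = 3 each), with ranges of 380 to 394 and 320 to 376 that did not overlap. *Prkcq* made up 10.4 ± 2.55% and 9.18 ± 3.43% of it. The sum of the calcium-independent class was 137 to 148 per kb in controls and 103 to 113 in labelled mutants, which did not overlap. Its share did not overlap either, at 36.1 to 38.0% in controls and 29.0 to 34.7% in labelled mutants. Single genes with separate groups made up 10.2% of those tested in this comparison, and no member was among them. Within the class the mean of *Prkce* was lower (91.0 and 60.2 per kb), as were *Prkcq* (40.4 and 31.3) and *Prkch* (1.06 and 0.237). That of *Prkcd* was higher (12.05 and 16.6). The shares of the conventional and atypical classes overlapped there. Marker sums were separate in the same libraries. Besides the lower MGE lineage sum given with *Prkce*, genes of radial glia and progenitors summed to 3166 to 3656 normalized counts over 7 genes in controls and 4870 to 5475 in labelled mutants, and the part of either in these sums was not tested. No test was made of sums over members.

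**Figure D3:**
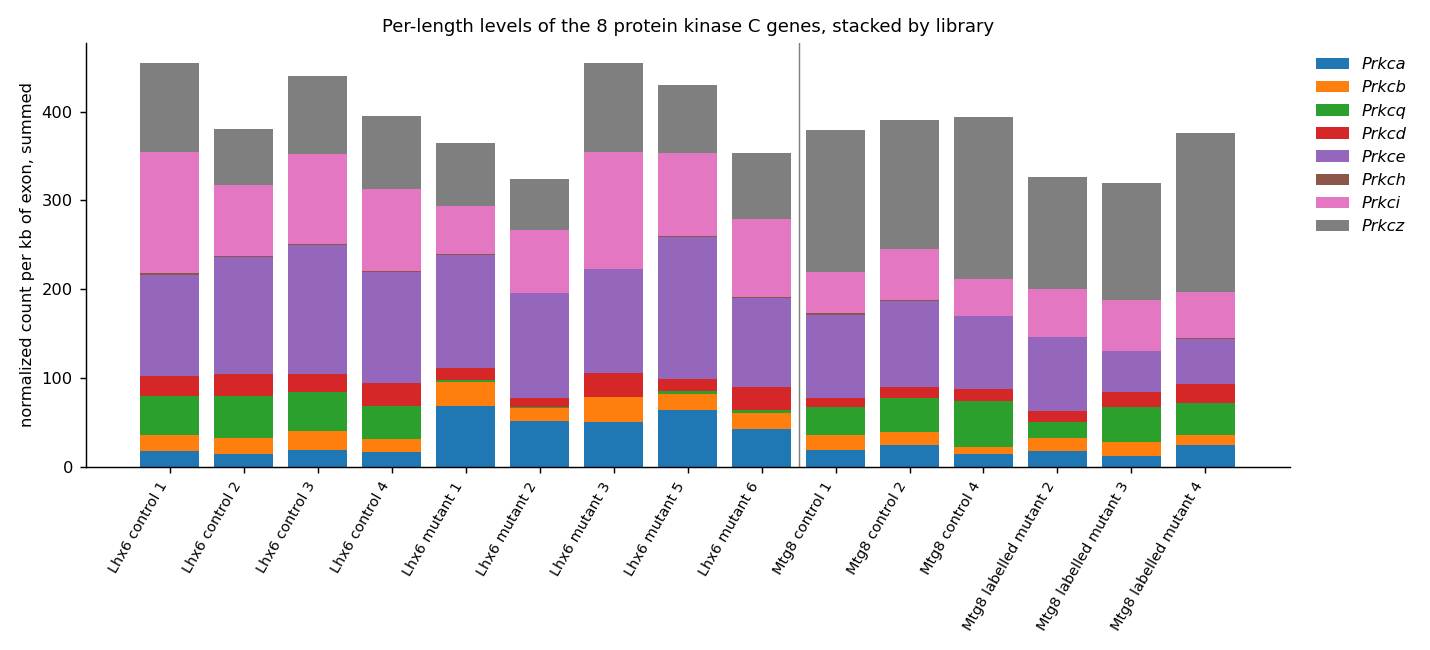
Normalized counts per kb of exon of the 8 PKC genes, stacked for each library; the vertical line parts the 2 tables, which were normalized separately. Total height overlaps between *Lhx6* controls (381 to 455) and mutants (324 to 454), while the *Prkcq* segment nearly vanishes and the *Prkca* segment grows in each *Lhx6* mutant.

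The genes whose pattern was most like that of *Prkcq* over the 9 libraries of the *Lhx6* table were BC030500 (Pearson r = 0.962 on the log2 scale), *Lgi1* (0.961), *Tshz3* (0.960), A830011K09Rik (0.958) and *Plcb1* (0.958). These 9 libraries form 2 separate groups for *Prkcq*, so r mainly carries the gap between controls and mutants, and no test is attached to it. All 5 genes had lower means in the mutants, from -0.84 on the log2 scale for A830011K09Rik to -4.50 for BC030500. BC030500 went from 99.6 ± 8.88 to 7.95 ± 9.51 normalized counts and *Tshz3*, a zinc finger factor gene, from 1005 ± 132 to 271 ± 80.3 (SD, n = 4 and n = 5). Over the 6 libraries of the *Mtg8* table r with *Prkcq* was 0.487, -0.165, -0.463, 0.110 and -0.621 in the same order. With 6 libraries and no test, no likeness is read from these values.

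Around the kinases, 68 other genes of PKC signalling were listed by role, and 56 were tested in the *Lhx6* comparison. By limma 2 fell, beside 0.682% of all genes tested, and 1 rose, beside 1.03%. The median log2 difference of the 56 was -0.09. The 2 that fell both handle diacylglycerol. *Plcb1* encodes a phospholipase C activated by Gq-coupled receptors, which makes diacylglycerol. It was at 758, 645, 662 and 746 normalized counts in *Lhx6* controls and 479, 329, 249, 353 and 435 in mutants. Each mutant was below each control, with a log2 difference of -0.96 (SE 0.20, limma adjusted p = 0.0245). *Dgkg* encodes a diacylglycerol kinase, which removes the lipid by phosphorylating it. It was at 1314, 840, 1136 and 881 normalized counts in controls and 318, 230, 487, 467 and 207 in mutants, again without overlap, and differed by -1.67 (SE 0.27, limma adjusted p = 0.00541).

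*Pard3*, which encodes a scaffold of the polarity complex that holds atypical PKC, rose. It was at 578, 596, 652 and 618 normalized counts in *Lhx6* controls and 929, 1002, 967, 893 and 811 in mutants. All mutants were above all controls, with a log2 difference of 0.59 (SE 0.13, limma adjusted p = 0.0418). The calls of *Plcb1* and *Pard3* were lost when any 1 of the 4 controls, or mutant 2 or mutant 5, was left out, whereas *Dgkg* was called with each library left out. The differences themselves stayed between -1.06 and -0.83 for *Plcb1* and between 0.56 and 0.63 for *Pard3*. Both calls were also lost with name style as a covariate, and that of *Dgkg* was not. *Pard3* was also not called with TMM factors or without the filter on low values. Between the undated libraries the log2 differences were -0.69 for *Plcb1*, -2.30 for *Dgkg* and 0.41 for *Pard3*, the same signs. Other genes differed by more than *Plcb1* and *Pard3* on the log2 scale and were not called. *Rasgrp1*, a diacylglycerol-dependent Ras activator, was at 28.09 ± 6.82 normalized counts in controls and 24.8 ± 21.2 in mutants (SD, n = 4 and n = 5), a difference of -1.07 (SE 0.98, limma adjusted p = 0.658). *Dgkq*, another diacylglycerol kinase gene, was at 56.1 ± 15.2 and 34.7 ± 32.9, a difference of -1.04 (SE 0.55, limma adjusted p = 0.459).

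By role, 1 of 9 tested phospholipases C, 1 of 9 diacylglycerol kinases and 1 of 9 polarity partners were the called genes of the *Lhx6* comparison. Of the diacylglycerol kinases 8 of 9 had a lower mean in the mutants (6 to 8 with a library left out), beside 8930 of 16727 genes, with a median of -0.26. The other lists held 0 called genes: 6 related kinases (median -0.02), 6 further diacylglycerol receptors (-0.16), 10 substrates (-0.06), 5 scaffolds and phosphatases (-0.19) and 2 genes of the NF-kB module that PKC theta acts on in T cells (-0.13). These medians lie beside one of -0.04 over all genes.

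In the *Mtg8* comparison 55 of the 68 genes were tested and 0 were called by limma, DESeq2 or edgeR, while 7 had an unadjusted p under 0.05 by limma, beside 5.49% of all genes. The median difference of the 55 was -0.03. The largest differences were those of *Ppp1r14a*, a phosphatase inhibitor that PKC phosphorylates, at 1.48 (SE 0.53), *Marcksl1*, a substrate that binds actin and membranes, at 1.42 (SE 0.62), *Plcb3*, a phospholipase C, at 1.22 (SE 0.45), and *Prkd1*, the gene of a kinase activated by PKC, at 0.87 (SE 0.39), each with a limma adjusted p of 0.859. *Marcksl1* varied widely, at 4013, 4620 and 2849 normalized counts in controls and 2983, 9633 and 35053 in labelled mutants 2, 3 and 4, so that the groups overlapped. Its difference ranged from 0.51 to 2.29 with each library left out in turn. *Akap5*, which encodes an anchoring protein that binds PKC at synapses, was at 1098, 1327 and 1582 normalized counts in controls and 831, 730 and 730.0 in the labelled mutants. Each labelled mutant was below each control, and the difference was -0.79 (SE 0.21, limma adjusted p = 0.769). Of the 55 genes, 3 were lower in each labelled mutant than in each control, beside 5.52% of all genes tested, and 2 were higher, beside 4.68%. All 9 diacylglycerol kinases had a lower mean in the labelled mutants, with a median of -0.30, and so had the 5 scaffolds and phosphatases, with a median of -0.41, beside 8309 of 16132 genes tested. Of the 9 kinases 6 to 9 were lower with 1 library left out, 7 with name style as a covariate and 6 with the replicate block. Of the 5 scaffolds and phosphatases 4 were lower without labelled mutant 4 and 5 in these other fits. Lower means were fewer among substrates (2 of 10, median 0.16), polarity partners (2 of 9, 0.13) and phospholipases C (3 of 8, 0.07). Related kinases (3 of 6), further diacylglycerol receptors (3 of 6) and the NF-kB module (1 of 2) were evenly split. Over all 55 genes 28 had a lower and 27 a higher mean. In the same libraries the markers of the sorted lineage were lower. Of 6 tested MGE lineage genes 5 had a lower mean in the labelled mutants, with a median of -0.40, and 4 of them (*Lhx6*, *Sox6*, *Satb1* and *Erbb4*) were lower in each labelled mutant than in each control. Of 7 tested GABAergic interneuron genes 6 had a lower mean, with a median of -0.40. By limma, DESeq2 and edgeR 0 genes of both lists were called (3 and 2 at an unadjusted limma p under 0.05). All 4 tested genes of oligodendrocyte precursors had a higher mean, with a median of 2.03 and 0 called by the same tools (2 at an unadjusted limma p under 0.05). Likewise all 8 pyramidal neuron genes and all 7 progenitor genes had a higher mean, with medians of 0.49 and 0.67. By limma 0 of them were called (3 in each list at an unadjusted limma p under 0.05), by DESeq2 2 pyramidal neuron genes. Of 6 tested CGE genes 4 had a higher mean, with a median of 0.22, and 1, *Sp8*, was higher in each labelled mutant (1.45) and called by DESeq2 (adjusted p = 0.0292) but not by limma (adjusted p = 0.636). The part of these cells in the values was not tested.

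**Figure D4:**
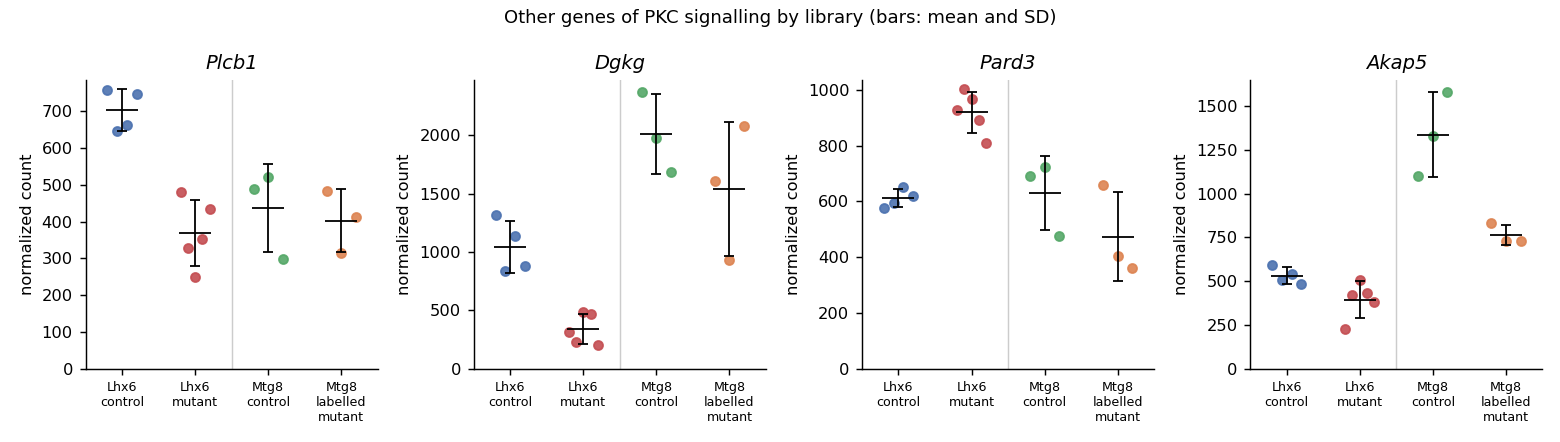
Normalized counts (y axis, linear) of *Plcb1*, *Dgkg*, *Pard3* and *Akap5* by library in the 4 groups, with group mean and SD. In the *Lhx6* comparison *Plcb1* and *Dgkg* are lower and *Pard3* higher in each mutant than in each control, and *Akap5* is lower in each labelled *Mtg8* mutant than in each control.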

How the data were processed

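The authors sorted YFP+ cells, made cDNA with a low-input kit and sequenced single 75-base reads. The labels and methods give trimming (fastp 0.20.1), alignment to GRCm38.p6 (STAR 2.7b) and counting per gene (featureCounts 1.6.4); use of strand is not given in the sources used here. The signal the authors deposited is each count divided by a DESeq2 size factor, in 1 table per comparison. Their own fold changes and p-values in the same tables were not used. Whole reads were recovered for 100% of values (tolerance 0.01). Read floors cover counting error only.

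The plan assumed normalized values. Each table was fitted alone on log2(normalized count + 1) with limma 3.58.1 (R 4.3.3, trend), keeping genes whose mean was 10 or more, two-sided, with Benjamini-Hochberg adjustment over all genes tested and a threshold of 0.05. Single genes had exact permutation tests. Folds and percentages of control are ratios of mean normalized counts. Log2 differences are differences of mean log2 values, so for low genes they can be smaller or larger than the log of that ratio. The script was tested on simulated data. Alternatives were pseudocounts of 0.5 and 10, a minimum mean of 50 or none, TMM factors, edgeR 4.0.16, DESeq2 1.42.0, a replicate block, name style as a covariate and each library left out. Members, lists and tests were chosen with earlier results of these data known. Named genes were the 8 members, *Lhx6* and *Runx1t1*, in each comparison the called pathway genes (at most 10) and, where fewer than 5, those of largest difference up to 5, and the 5 genes most correlated with *Prkcq*. Some listed genes are not reported here. Exon lengths and overlaps came from the annotation in the deposited tables, and 75-base words from GENCODE M21.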

Additional observations from a re-analysis of the deposited data

How the results depend on the processing

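Of 128 member values under alternatives in the *Lhx6* comparison, 124 moved by less than the spread between libraries, and the other 4 all came from name style as a covariate: *Prkca* 1.31, *Prkcd* 0.15, *Prkce* -0.35 and *Prkcq* -3.44. The *Prkcq* value was -4.64 by edgeR and -6.53 with the replicate block. In the *Mtg8* comparison *Prkca* turned sign with name style (0.0027), the replicate block (0.15) and single libraries left out (range -0.34 to 0.13, above 0 without control 2 or labelled mutant 3), and *Prkcb* with single libraries left out (range -0.15 to 0.39, below 0 without control 4). The other 102 of 107 values kept their sign and stayed uncalled.

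Genes called in the *Lhx6* comparison numbered 286, against 811 by DESeq2, 57 with name style and 86 with the replicate block. Leaving out 1 library gave 159 to 492: 159 without control 1, 174 without control 2, 173 without control 4 and 492 without mutant 6. Of the members, 2 were called, 2 with any library left out, 0 with name style and 1 (*Prkcq*) with the block, where *Prkca* was at 1.72, and nothing is read from these counts either, since the family was chosen on this contrast. Of the other pathway genes, 3 were called, 1 (*Dgkg*) with name style or the block (where *Plcb1* was at -1.01 and *Pard3* at 0.67, limma adjusted p = 0.287 and 0.450), and 1 to 3 with a library left out, 1 being *Dgkg* without any control or without mutant 5. In the *Mtg8* comparison 0 genes were called, against 30 by DESeq2, 1 by edgeR, 2 with a minimum mean of 50, 1 with no filter and 100 with the block. Leaving out 1 library gave 0 to 87: 87 without labelled mutant 2 and 1 without control 1 or control 2. The *Mtg8* block rests on 2 pairs and 1 residual degree of freedom, and limma then gave genes of like level 1 common spread, so nothing is read from its calls. They took in the pathway genes *Plcb3* (1.81, limma adjusted p = 0.0346) and *Marcksl1* (1.49, limma adjusted p = 3.2e-05), although *Marcksl1* was lower in the labelled mutant of 1 pair and higher in the other. *Prkcq* was at -0.79 (limma adjusted p = 0.394) and *Prkce* at -0.45 (limma adjusted p = 0.970) in that fit. Libraries with the same number did not deviate together in the *Lhx6* table (correlations of -0.15, 0.0017 and 0.072) and correlated at 0.14 and 0.16 over 2 pairs in the *Mtg8* table. Of these pairs, replicate 2 of the *Mtg8* table shares a date and stem in its library names, and no source says that the numbers pair libraries. The cause of these shifts was not tested. The number of embryos limits precision, and *Prkch* had only 0 to 16 reads per library.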
